A study of Mus musculus with 14 samples.

Results

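Transcripts of 10 genes of bile acid production were followed in liver RNA on 14 arrays, all from male mice on the C57BL/6 background. They are 9 enzymes (Cyp7a1, Cyp7b1, Cyp8b1, Cyp27a1, Hsd3b7, Akr1d1, Amacr, Baat and Slc27a5) and Nr0b2, the gene of the nuclear receptor SHP. The genes were taken from their known place in the pathway, with earlier results of these data known. Each was read from the brightest probe set that the array annotation assigns to that symbol alone. All 10 of 10 were found among the 22180 genes tested, each with 1 probe set. Every mouse carried Alb-cre, in which the albumin promoter drives Cre, so the controls share the transgene. That promoter is active in hepatocytes and in the fetal precursors they share with bile duct cells, and Lmna was not measured by cell type here. LMNA flx/flx; Alb-cre+ mice are called KO, LMNA flx/+; Alb-cre+ mice HET and LMNA +/+; Alb-cre+ mice WT. HET mice can lose 1 Lmna copy in hepatocytes and are not wild type. KO (n = 3, aged 35.3 weeks) and HET (n = 3, aged 30 to 30.4 weeks) mice had received a high fat diet, here HFD, for 14 weeks: the Surwit diet with fructose and sucrose in the drinking water. KO (n = 3, aged 38.9 weeks), HET (n = 3, aged 24 to 26.4 weeks) and WT (n = 2, aged 24.6 and 27 weeks) mice had been kept on standard chow. KO mice were older than HET mice on both diets, so age and genotype cannot be told apart. Single livers are named as in the labels: C2, C3 and C4 (KO, HFD), A2, B1 and B2 (HET, HFD), H1, H2 and I1 (KO, chow), F1, F2 and P1 (HET, chow), and G1 and N1 (WT, chow), and values are given in this order. The labels do not state that each array is a separate mouse, so p-values measure the spread between these samples.

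Bile acids are made from cholesterol in hepatocytes and are the main route by which the body disposes of cholesterol. In the classical pathway CYP7A1 hydroxylates cholesterol first and sets the rate, whereas in the alternative pathway CYP27A1 oxidises the side chain and CYP7B1 then hydroxylates the oxysterol. Both routes use HSD3B7 and AKR1D1 to rework the sterol rings, CYP8B1 adds the hydroxyl group that makes cholic acid, AMACR prepares the side chain for shortening in peroxisomes, and SLC27A5 and BAAT join the product to coenzyme A and to taurine or glycine. Bile acids returning to the liver activate the receptor FXR, which induces SHP, a receptor without a DNA-binding domain that represses Cyp7a1 and Cyp8b1 by binding to LRH-1 and HNF4A on their promoters.

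The values are log2 intensities after the authors' RMA, on which a difference of 1 is a doubling. The lowest array median over all probe sets was 2.21 and the highest was less than 0.1 above it. The lowest value of any of the 10 genes was 6.73 (Nr0b2 in 1 KO liver on HFD), so all 10 were well above the array medians in every liver. Changes are given as the log2 mean of one group minus that of the other, with the standard error (SE) from limma, and a gene was called at a Benjamini-Hochberg adjusted p under 0.05 over all 22180 genes. Over these genes, pairs of arrays from one group had correlations of 0.989 to 0.994, and pairs from different groups 0.980 to 0.994. Lmna, the deleted gene, was read by a dim probe set and averaged 3.99 ± 0.09 in KO and 4.15 ± 0.13 in HET livers on HFD (SD, n = 3 each), a difference that did not pass (limma adjusted p = 0.517). On chow it averaged 3.85 ± 0.22 in KO, 4.31 ± 0.08 in HET (SD, n = 3 each) and 4.47 ± 0.05 in WT livers (SD, n = 2). The change against WT passed (-0.62 ± 0.14 SE, adjusted p = 0.0393) and that against HET did not (adjusted p = 0.0823). With the HFD and chow changes pooled, KO minus HET was -0.31 ± 0.09 (SE) and passed (limma adjusted p = 0.0386). The probe set is thus a partial check of the labels.

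Of the promoters, RefSeq windows on GRCm38.p6 were at hand for 5 of the 10 genes. The 250 bases before the start are shown for Nr0b2 and Cyp27a1, whose transcripts fell in KO livers on HFD, and for Cyp8b1, a target of SHP whose change in the same comparison did not pass. Capitals mark matches, on either strand, to the element bound by LRH-1 (CAAGGNCA), to an HNF4 element (CAAAGTCCA) and to the TATA box (TATAAA). Nr0b2 lies on the plus strand (chr4:133553126-133553375), Cyp27a1 on the plus strand (chr1:74713285-74713534) and Cyp8b1 on the minus strand (chr9:121916306-121916555), and each sequence runs 5′ to 3′ toward its gene.
Nr0b2: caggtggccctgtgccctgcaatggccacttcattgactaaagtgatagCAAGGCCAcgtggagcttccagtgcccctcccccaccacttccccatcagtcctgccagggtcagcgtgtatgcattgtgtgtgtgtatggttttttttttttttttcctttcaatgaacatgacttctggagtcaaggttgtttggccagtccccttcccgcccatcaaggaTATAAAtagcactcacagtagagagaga
Cyp27a1: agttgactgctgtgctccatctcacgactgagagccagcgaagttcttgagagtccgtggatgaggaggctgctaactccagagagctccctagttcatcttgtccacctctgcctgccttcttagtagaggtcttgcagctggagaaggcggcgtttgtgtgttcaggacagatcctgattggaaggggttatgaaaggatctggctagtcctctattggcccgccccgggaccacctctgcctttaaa
Cyp8b1: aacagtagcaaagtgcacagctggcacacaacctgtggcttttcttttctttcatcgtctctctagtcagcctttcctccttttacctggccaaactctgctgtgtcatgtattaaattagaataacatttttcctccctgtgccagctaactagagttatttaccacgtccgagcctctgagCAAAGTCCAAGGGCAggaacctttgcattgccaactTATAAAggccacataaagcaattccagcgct

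The Nr0b2 window held 1 LRH-1 element, starting at -201 from the gene's start, and a TATA box starting at -28. The Cyp8b1 window held an HNF4 element starting at -67 that overlaps an LRH-1 element starting at -60, and a TATA box starting at -31. Among all 32536 distinct windows of 250 bases, 5.54% held the LRH-1 element, 0.387% the HNF4 element and 12.3% the TATA box. An inverted repeat of GGTCA separated by 1 base, the form that FXR prefers, was in none of the 5 windows and in 0.0338% of all windows. Only exact matches were searched, and so rare a match was unlikely in 5 windows, so its absence does not show that FXR sites are lacking. No element searched was in the Cyp27a1 window. These are matches of letters, and binding was not measured.

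Between KO and HET livers on HFD, 4 of the 10 genes were called, all lower in KO, while 7.56% of all genes were called. They were Cyp7b1 of the alternative pathway, Cyp27a1, which starts that pathway, Slc27a5, the bile acid:CoA ligase, and Nr0b2. Cyp7b1 was at 29.9%, Nr0b2 at 50.5%, Cyp27a1 at 68.8% and Slc27a5 at 70.7% of the HET level on the linear scale. The rate-limiting Cyp7a1 and the conjugating enzyme Baat were the members whose mean was not lower in KO, and neither passed. The median change of the 10 genes was -0.35, against -0.02 over all genes. Groups did not overlap for 5 of the 10 genes (the 4 called and Amacr), against 26.2% of all genes. The KO liver C4 had the lowest value of all 14 arrays for each of the 4 called genes and for Cyp8b1. Without it Cyp7b1 (-1.45 ± 0.27 SE, adjusted p = 0.0112) and Slc27a5 (-0.48 ± 0.12, adjusted p = 0.0405) passed, and Cyp27a1 (-0.45 ± 0.14, adjusted p = 0.0993) and Nr0b2 (-0.83 ± 0.29, adjusted p = 0.149) did not.

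**Figure D1:**
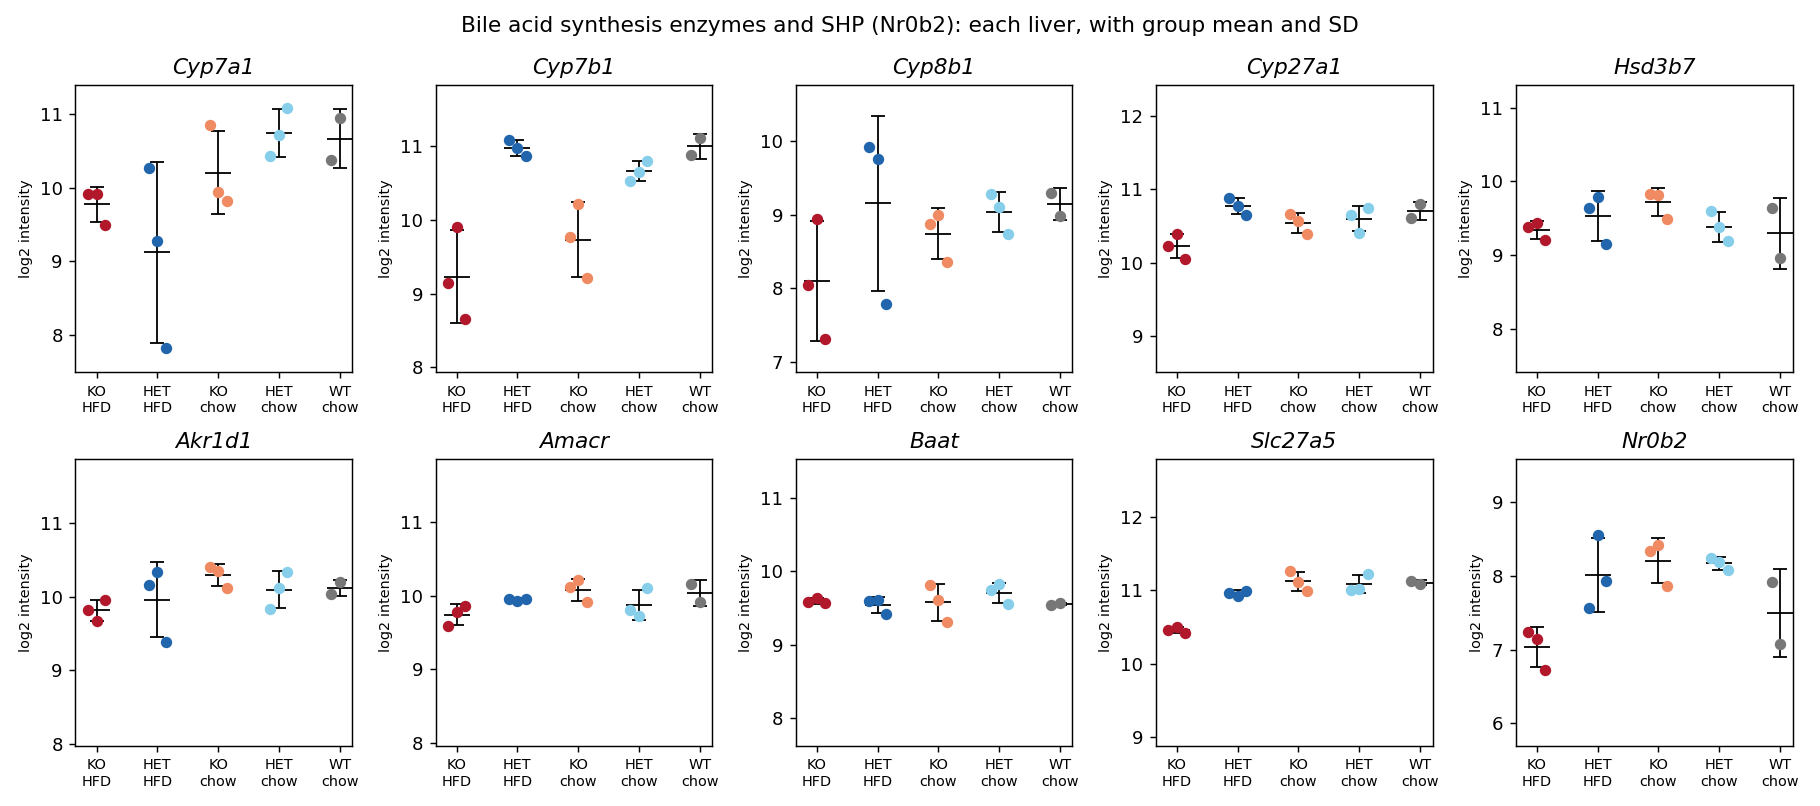
Log2 intensity of each of the 10 genes (1 panel each, all panels spanning the same number of log2 units) in every liver, for KO and HET on HFD and KO, HET and WT on chow. Dots are livers, and the black lines give the group mean and SD (n = 3, WT n = 2). Cyp7b1 was lower in all 6 KO livers than in all 8 others, and Slc27a5 was lowest in the 3 KO livers on HFD.

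Cyp7b1, the hydroxylase of the alternative pathway and a gene known for higher expression in male than in female mouse liver, was the member that separated the genotypes on both diets. On HFD its values were 9.14, 9.90 and 8.65 in KO livers, against 11.08, 10.97 and 10.87 in HET livers. Every KO liver was lower than every HET liver, and the KO livers spread more widely. The change was -1.74 ± 0.28 (SE, limma adjusted p = 0.00253), which ranked 297th by p among 22180 genes. On chow its values were 9.76, 10.22 and 9.21 in KO livers, against 10.53, 10.65 and 10.80 in HET livers and 10.88 and 11.12 in WT livers. The groups did not overlap, yet neither the change against HET (-0.93 ± 0.28, adjusted p = 0.140) nor that against WT (-1.27 ± 0.31, adjusted p = 0.0700) passed. Pooling the HFD and chow changes gave -1.34 ± 0.20, or 39.6% of the HET level (adjusted p = 9.43e-04). The difference between the HFD and the chow change was -0.81 ± 0.40 and did not pass (adjusted p = 0.527). By Pearson correlation over the 14 arrays, the genes most like Cyp7b1 were the inflammasome gene Nlrp6 (r = 0.969), the carboxylesterase Ces3b (r = 0.967) and the steroid dehydrogenase Hsd3b2 (r = 0.962), among 10463 genes above the median level. Taken as deviations from the group means, these correlations were 0.819, 0.814 and 0.760. The arrays of a group share genotype, diet and age, which these values do not separate.

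Cyp27a1, the mitochondrial enzyme that starts the alternative pathway, had 10.23, 10.39 and 10.06 in KO livers on HFD, against 10.87, 10.77 and 10.66 in HET livers on HFD. All 3 KO livers lay below all 3 HET livers by a small margin. The change was -0.54 ± 0.13 (SE, adjusted p = 0.0222). On chow the values overlapped, at 10.66, 10.56 and 10.39 in KO, 10.65, 10.41 and 10.74 in HET and 10.61 and 10.79 in WT livers. The chow change against HET was -0.06 ± 0.13 (adjusted p = 0.892), with a 95% confidence interval of -0.34 to 0.21. The call on HFD was lost without HET A2 (adjusted p = 0.0798), HET B1 (0.0609), KO C2 (0.0653) or KO C4 (0.0993), and when only the 6 HFD arrays were fitted (0.0557).

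Slc27a5, which activates bile acids with coenzyme A and also imports fatty acids, had the tightest groups. Its values were 10.46, 10.50 and 10.42 in KO livers on HFD, against 10.97, 10.92 and 10.99 in HET livers on HFD. The 3 KO livers on HFD were also lower than all 8 chow livers, which lay between 11.00 and 11.26. The KO minus HET change on HFD was -0.50 ± 0.10 (SE, adjusted p = 0.00905), and it passed in all 22 alternative fits. On chow it was 0.04 ± 0.10 (adjusted p = 0.926), with an interval of -0.18 to 0.26. The difference between the diets was -0.54 ± 0.14, and it did not pass over all genes (adjusted p = 0.247).

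Nr0b2, which encodes SHP, had 7.24, 7.14 and 6.73 in KO livers on HFD, against 7.57, 8.56 and 7.93 in HET livers on HFD. The groups did not overlap, although HET A2 was close to the KO livers. The change was -0.98 ± 0.26 (SE, adjusted p = 0.0377). This call was the least stable of the 4, since it was lost in 9 of 22 alternative fits, with adjusted p up to 0.149 (without KO C4). It was lost without HET B1 or B2, without KO C2, C3 or C4, without the chow HET liver F2 or both F1 and F2, when arrays sharing a name letter formed a random block, and when only the 6 HFD arrays were fitted. On chow Nr0b2 had 8.34, 8.43 and 7.87 in KO livers, against 8.25, 8.19 and 8.08 in HET livers and 7.92 and 7.08 in WT livers. KO and HET overlapped there (change 0.04 ± 0.26, adjusted p = 0.977). Both were above WT on average, by 0.71 ± 0.29 in KO (adjusted p = 0.353) and by 0.68 ± 0.29 in HET livers (adjusted p = 0.999), which did not pass, and 1 of the 2 WT livers (7.08) was as low as the KO livers on HFD. The genes most like Nr0b2 over the 14 arrays were the phospholipase Plcb3 (r = 0.893, and 0.860 within groups), the cytochrome Cyp3a25 (0.871 and 0.798) and the early growth response gene Egr1 (0.864 and 0.830).

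Cyp7a1 varied more within groups than between genotypes. On HFD it had 9.91, 9.92 and 9.50 in KO livers, against 10.27, 9.28 and 7.82 in HET livers. The KO values lay inside the HET range, and also between HET A2 and B1 alone, while HET B2 lay below them all. The change was 0.65 ± 0.47 (SE, adjusted p = 0.484), with an interval of -0.37 to 1.67, and without B2 it was 0.00 ± 0.35 (adjusted p = 0.998). On chow Cyp7a1 had 10.85, 9.95 and 9.82 in KO livers, against 10.44, 10.72 and 11.08 in HET livers and 10.38 and 10.95 in WT livers. The change against HET was -0.54 ± 0.47 (adjusted p = 0.693) and that against WT -0.46 ± 0.53 (adjusted p = 0.844), so differences of more than 1 on the log2 scale lay inside both intervals. The genes most like Cyp7a1 over the 14 arrays were the spliceosome-associated Wbp4 (r = 0.839), the zinc finger gene Zfp317 (r = 0.836) and the telomerase gene Tert (r = 0.827), with 0.841, 0.691 and 0.731 within groups.

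Cyp8b1, which sets the share of cholic acid, had 8.04, 8.94 and 7.32 in KO livers on HFD, against 9.92, 9.76 and 7.78 in HET livers on HFD. HET A2 and B1 were above all 3 KO livers and HET B2 was among them. The change was -1.05 ± 0.49 (SE, adjusted p = 0.252). Without B2 it was -1.74 ± 0.37 and passed (adjusted p = 0.0157), the only 1 of 22 alternative fits in which it did. Without KO C4 it was -0.66 ± 0.52 (adjusted p = 0.584). The lowest Cyp8b1 value of all 14 arrays was that of C4 (7.32), whereas Akr1d1 (9.38) and Cyp7a1 (7.82) were lowest in B2. On chow Cyp8b1 had 8.87, 9.00 and 8.36 in KO livers, against 9.28, 9.10 and 8.74 in HET and 9.30 and 8.99 in WT livers, and neither KO comparison passed (adjusted p = 0.864 and 0.884). The genes most like Cyp8b1 over the 14 arrays were the alcohol dehydrogenase Adh4 (r = 0.886), the ribosomal protein gene Rpl4 (r = 0.872) and Lrtm1 (r = 0.852), with 0.895, 0.912 and 0.936 within groups.

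The 4 remaining enzymes were not called between genotypes on either diet. Hsd3b7, which oxidises the sterol ring, had 9.37, 9.44 and 9.21 in KO and 9.64, 9.79 and 9.15 in HET livers on HFD (-0.19 ± 0.20 SE, adjusted p = 0.665). Akr1d1, the reductase of the next ring step, had 9.82, 9.67 and 9.95 in KO and 10.15, 10.34 and 9.38 in HET livers on HFD (-0.15 ± 0.21, adjusted p = 0.766). The KO and HET livers overlapped for both, through HET B2 alone. Without B2 the changes were -0.38 ± 0.20 for Hsd3b7 (adjusted p = 0.308) and -0.43 ± 0.16 for Akr1d1 (adjusted p = 0.143). Amacr, the racemase of the side chain, had 9.59, 9.78 and 9.86 in KO and 9.96, 9.93 and 9.96 in HET livers on HFD (-0.20 ± 0.13, adjusted p = 0.409). Its KO values were all below its HET values, by a margin too small to pass. Baat, which conjugates bile acids, was the steadiest member, with group means between 9.54 and 9.71 and a change of 0.06 ± 0.13 on HFD (adjusted p = 0.855, interval -0.22 to 0.33). On chow the KO minus HET changes were 0.33 ± 0.20 for Hsd3b7, 0.20 ± 0.21 for Akr1d1, 0.20 ± 0.13 for Amacr and -0.13 ± 0.13 for Baat. Their adjusted p lay between 0.530 and 0.763.

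**Figure D2:**
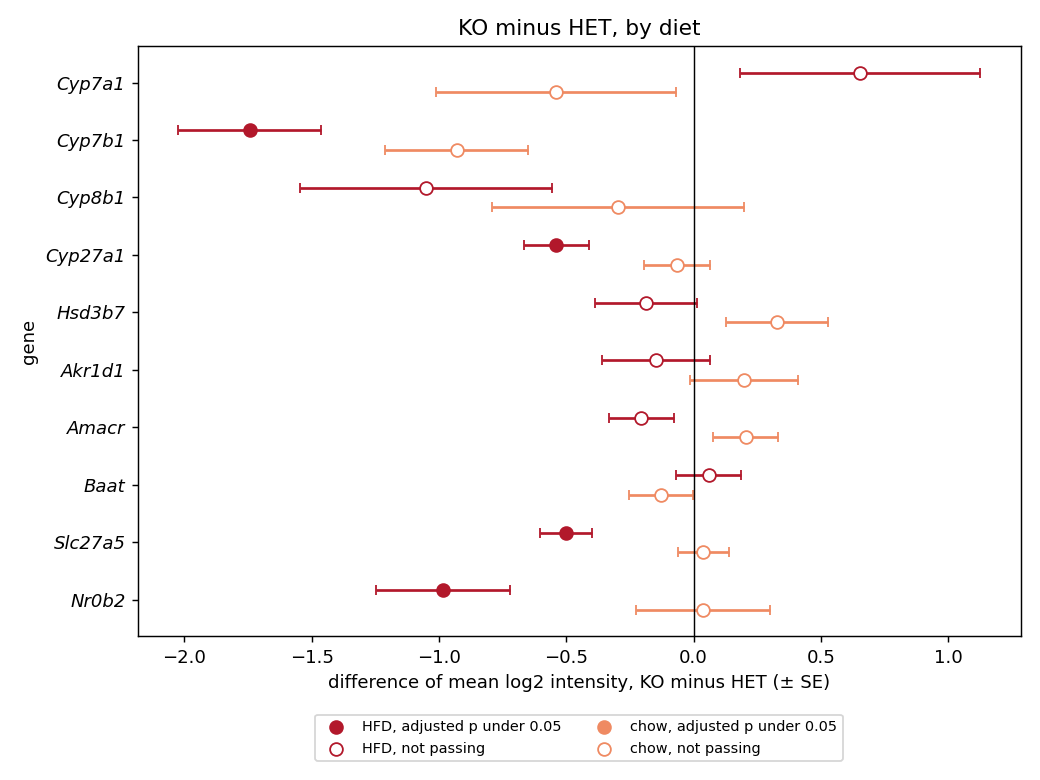
KO minus HET difference of mean log2 intensity (x axis) for each of the 10 genes (y axis), with its SE, on HFD (dark) and on chow (light). Filled points passed an adjusted p of 0.05. On HFD, Cyp7b1, Cyp27a1, Slc27a5 and Nr0b2 passed, all to the left of 0, and on chow none of the 10 did.

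Between KO and HET livers on chow, limma called 0 of the 10 genes, against 1.92% of all genes. Only Cyp7b1 had an unadjusted p under 0.05, as did 13.4% of all genes, and it was also the only member whose groups did not overlap, against 18.9% of all genes. Between KO and WT livers, which share the KO livers with the comparison above, limma called 0 of 10 as well, against 1.65% of all genes, and 2 members (Cyp7b1 and Nr0b2) had an unadjusted p under 0.05, as did 11.8% of all genes. Between HET and WT livers limma called 0 of 10 and 0% of all genes, with 1 member (Nr0b2) and 4.30% of all genes at an unadjusted p under 0.05. Groups did not overlap for Nr0b2, lower in WT, and Cyp7b1, lower in HET, against 17.9% of all genes. Over both diets the KO minus HET comparison called 1 of 10 genes, Cyp7b1, against 9.43% of all genes. Cyp27a1 (-0.30 ± 0.09 SE, adjusted p = 0.0561) and Slc27a5 (-0.23 ± 0.07, adjusted p = 0.0630) stood just outside the threshold. The clock genes Dbp and Arntl, which cycle in opposite phase through the day, split the chow HET livers and overlapped between KO and HET: Dbp was 8.64, 8.40 and 8.50 in KO livers, against 6.68, 5.70 and 9.56 in HET livers, and Arntl was 6.76, 7.01 and 6.62 in KO livers, against 8.13, 8.34 and 4.22 in HET livers. HET F1 and F2 lay on one side of the KO livers and HET P1 on the other, and neither gene passed (adjusted p = 0.487 for Dbp and 0.980 for Arntl). Of 14 clock genes 1 passed on chow, the repressor Cry1, which was lower in KO (-1.36 ± 0.29 SE, adjusted p = 0.0327). When each array's Dbp minus Arntl value was added to the fit, the chow change of Cyp7a1, a gene known to cycle daily, was -0.64 ± 0.49 (adjusted p = 0.645) and that of Cyp7b1 -0.96 ± 0.30 (adjusted p = 0.142).

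The diet comparison asked how the same genotype differed between HFD and chow. In KO livers 1 of the 10 genes was called, against 0.316% of all genes, and it was Slc27a5, which fell to 10.46 ± 0.04 on HFD, against 11.12 ± 0.13 on chow (SD, n = 3 each). The change was -0.66 ± 0.10 (SE, adjusted p = 0.0203), or 63.1% of the chow level, and ranked 20th by p of all genes. The means of 9 of the 10 genes were lower on HFD than on chow, with a median change of -0.46 against 0.00 over all genes, and the groups did not overlap for 6 of 10, against 18.9% of all genes. Nr0b2 had the largest difference (-1.18 ± 0.26), with 7.24, 7.14 and 6.73 on HFD, against 8.34, 8.43 and 7.87 on chow. Its groups did not overlap, but it did not pass over all genes (adjusted p = 0.0906). Akr1d1 (-0.48 ± 0.21), Amacr (-0.34 ± 0.13) and Cyp27a1 (-0.31 ± 0.13) each had an unadjusted p under 0.05, as did 11.1% of all genes, and adjusted p between 0.347 and 0.425. These KO values on HFD are the same livers that enter the comparison with HET livers on HFD. The call of Slc27a5 was lost without KO H1, H2, C2, C3 or C4, each left out alone (adjusted p from 0.0672 to 0.104), and when only the 6 KO arrays were fitted (0.0786).

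In HET livers 0 of the 10 genes were called by limma between HFD and chow, against 0.198% of all genes. The largest difference was that of Cyp7a1, which had 10.27, 9.28 and 7.82 on HFD, against 10.44, 10.72 and 11.08 on chow. Its HFD values were all lower than its chow values, and it was the 1 member with an unadjusted p under 0.05, as 10.2% of all genes had (-1.62 ± 0.47 SE, adjusted p = 0.230). The groups also did not overlap for Cyp7b1 and Slc27a5, making 3 of 10, against 13.6% of all genes. Without HET B2 the Cyp7a1 difference was -0.97 ± 0.35 (adjusted p = 0.274). Dbp was 10.10, 9.26 and 9.75 in HET livers on HFD, against 6.68, 5.70 and 9.56 on chow, and with the clock term the Cyp7a1 difference was -1.87 ± 0.56 (adjusted p = 0.280). For the other 9 genes the differences lay between -0.17 (Baat) and 0.31 (Cyp7b1), with adjusted p of 0.708 or more. Without B2 that of Cyp8b1 was 0.80 ± 0.37 (adjusted p = 0.403), and that of Akr1d1 was 0.15 ± 0.16, against -0.14 with it (adjusted p = 0.774 and 0.889). HET mice on HFD were older than HET mice on chow, and KO mice on HFD were younger than KO mice on chow.

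**Figure D3:**
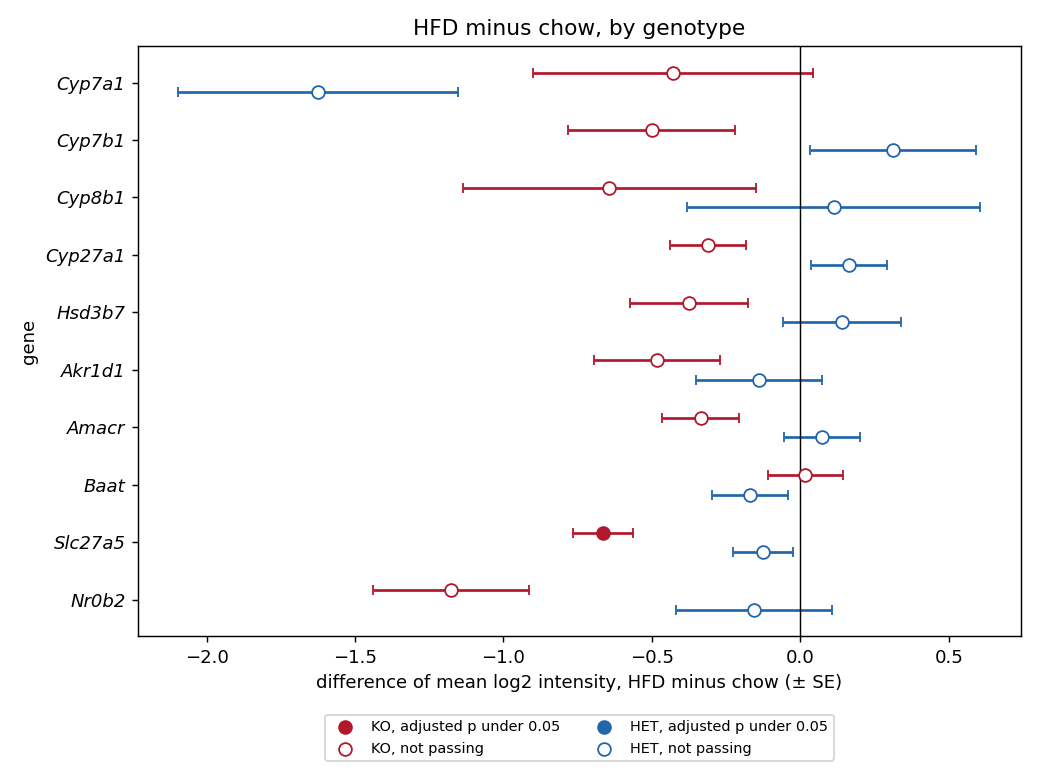
HFD minus chow difference of mean log2 intensity (x axis) for each of the 10 genes (y axis), with its SE, in KO (red) and HET livers (blue). Filled points passed an adjusted p of 0.05, which was Slc27a5 in KO livers (-0.66). The KO differences of 9 genes lie to the left of 0, and Cyp7a1 has the largest HET difference (-1.62).

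The test of whether the genotype change differed between the diets called 0 of the 10 genes with limma, against 0.0361% of all genes. At an unadjusted p under 0.05 there were 4: Slc27a5 (-0.54 ± 0.14 SE), Nr0b2 (-1.02 ± 0.37), Cyp27a1 (-0.47 ± 0.18) and Amacr (-0.41 ± 0.18). Their adjusted p were 0.247, 0.389, 0.422 and 0.488, and 9.86% of all genes had an unadjusted p under 0.05. The calls of Cyp27a1, Slc27a5 and Nr0b2 on HFD are therefore not shown to differ from their uncalled changes on chow. For Cyp7a1 the difference between the diets was 1.19 ± 0.67 (adjusted p = 0.595), and without HET B2 it was 0.54 ± 0.47 (adjusted p = 0.699). Without B2 that of Cyp8b1 was -1.44 ± 0.49, against -0.76 ± 0.70 with it, and did not pass either (adjusted p = 0.301 and 0.766).

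Other genes of the pathway, listed by function, stood beside these as follows between KO and HET livers on HFD. Of the other steps of synthesis, 1 of 14 measured genes was called, lower in KO, a share no higher than the 7.56% of all genes. It was Cyp2c70, the mouse enzyme that makes muricholic acids, at 11.19 ± 0.17 in KO and 11.64 ± 0.10 in HET livers (SD, n = 3 each, change -0.44 ± 0.11 SE, adjusted p = 0.0227). The peroxisomal Hsd17b4, which helps shorten the side chain, stood at 0.44 ± 0.13 and did not pass (adjusted p = 0.0526). Over both diets it rose (0.39 ± 0.09, adjusted p = 0.0145), as did the thiolase Acaa1b (0.66 ± 0.14, adjusted p = 0.0108) and Cyp2a12 (0.24 ± 0.07, adjusted p = 0.0423), whereas the oxysterol hydroxylase Cyp39a1 fell (-0.50 ± 0.14, adjusted p = 0.0366), so 3 of 14 rose and 1 fell, beside 9.43% of all genes called. Among regulators on HFD, 0 of 15 rose and 2 fell. Klb, the co-receptor through which the gut hormone FGF15 lowers bile acid synthesis, was 8.44 ± 0.11 in KO and 9.15 ± 0.10 in HET livers (-0.70 ± 0.15, adjusted p = 0.0135). Hnf4a, a transcription factor that drives Cyp7a1 and Cyp8b1, was 10.63 ± 0.11 in KO and 10.99 ± 0.02 in HET livers (-0.36 ± 0.10, adjusted p = 0.0423). Nr1h4, which encodes FXR (-0.03 ± 0.23, adjusted p = 0.960), Nr5a2, which encodes LRH-1 (-0.34 ± 0.12, adjusted p = 0.130), and Fgfr4, the partner of Klb (-0.20 ± 0.18, adjusted p = 0.595), did not pass. Of the transporters, 2 of 13 rose and 5 fell. The rises were in Abcc4 (3.47 ± 0.21, adjusted p = 1.26e-06) and Abcc3 (1.47 ± 0.31, adjusted p = 0.0109), which export bile acids to blood. Slc10a1, the uptake carrier NTCP, fell (-0.98 ± 0.21, adjusted p = 0.0130), as did Abcb11, the bile salt export pump (-0.74 ± 0.19, adjusted p = 0.0304), and the uptake carrier Slco1a1 (-2.78 ± 0.52, adjusted p = 0.00590). The other falls, named after their values were seen, were in the uptake carrier Slco1a4 (-1.01 ± 0.28, adjusted p = 0.0417) and the canalicular lipid flippase Atp8b1 (-0.53 ± 0.14, adjusted p = 0.0391). The median changes were -0.10 for the other steps, -0.20 for the regulators and -0.26 for the transporters, against -0.02 over all genes. Of 14 clock genes limma called 0 on HFD, Dbp at -0.34 ± 0.68 (adjusted p = 0.839), Arntl at 0.31 ± 0.85 (adjusted p = 0.890) and Nr1d1, a clock repressor, at -0.80 ± 0.23 (adjusted p = 0.0573), with groups that did not overlap for Nr1d1.

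On chow 1.92% of all genes passed between KO and HET livers. None of the 14 other steps and none of the 15 regulators was called by limma. At an unadjusted p under 0.05 there were 6 of the other steps and 2 of the regulators, against 13.4% of all genes. Of 13 transporters 1 rose, Abcc4 (1.61 ± 0.21 SE, adjusted p = 0.00121). The regulators Klb (-0.18 ± 0.15, adjusted p = 0.689) and Hnf4a (0.08 ± 0.10, adjusted p = 0.807) and the transporters Slc10a1 (-0.24 ± 0.21, adjusted p = 0.698) and Abcb11 (-0.05 ± 0.19, adjusted p = 0.950) did not pass there. Slco1a4 fell with HFD in KO (-2.30 ± 0.28, adjusted p = 0.00401) and in HET livers (-1.69 ± 0.28, adjusted p = 0.0326), and Abcc4 fell with HFD in HET livers (-1.15 ± 0.21, adjusted p = 0.0496).

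**Figure D4:**
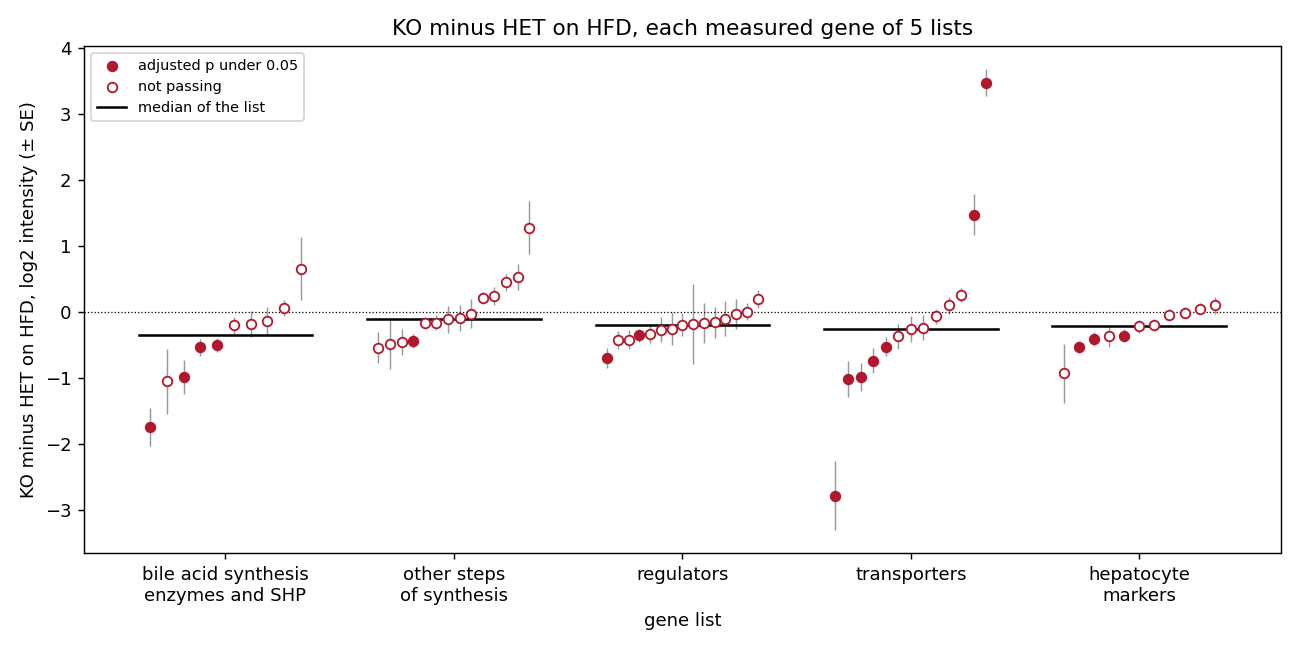
KO minus HET difference on HFD (y axis, log2 intensity with SE) for every measured gene of 5 lists (x axis): the 10 genes of this account, other steps of synthesis, regulators, transporters and hepatocyte markers. Filled points passed an adjusted p of 0.05, and black lines are list medians. The medians lie at -0.35, -0.10, -0.20, -0.26 and -0.22, and Abcc4 has the largest rise (3.47).

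Bile acid synthesis is a hepatocyte function, and in whole liver fewer hepatocytes and less RNA per hepatocyte cannot be told apart. Of 11 measured hepatocyte markers, 3 fell between KO and HET livers on HFD, where 7.56% of all genes were called: Cps1 (-0.53 ± 0.09 SE, adjusted p = 0.00433), Apoa1 (-0.41 ± 0.10, adjusted p = 0.0318) and Apob (-0.36 ± 0.10, adjusted p = 0.0429). The log2 of the summed intensity of the 11 markers ranged from 15.88 to 15.91 in KO livers and from 16.00 to 16.07 in HET livers on HFD, and from 15.98 to 16.00 in KO, 15.99 to 16.06 in HET and 16.00 to 16.05 in WT livers on chow. The brightest markers, Alb, Ttr and Apoa2, weigh most in this sum and averaged 13.43, 13.20 and 13.09. The highest value on each array lay between 13.47 and 13.77. Whether closeness to that limit narrowed the sums was not tested. The list's median change on HFD was -0.22, against -0.35 for the 10 bile acid genes. Stellate cell markers had 4 of 10 up and 1 down on HFD, with summed levels of 11.46 to 11.59 in KO and 11.16 to 11.20 in HET livers. Macrophage markers had 3 of 12 up and 1 down, with 11.14 to 11.33 in KO and 10.72 to 11.25 in HET livers. In each such sum the brightest markers weigh most. Mean log2 values of the 12 macrophage markers did not overlap, at 6.78 to 6.99 in KO and 5.91 to 6.44 in HET livers. Gpnmb, Ccr2 and Cx3cr1 were below the array median or less than 1 log2 unit above it on 7, 9 and 7 arrays. Cholangiocyte markers had 2 of 8 up and 0 down, with 7.67 to 8.17 in KO and 6.91 to 7.43 in HET livers. The defining Krt19, Krt7, Cftr and Sctr were below the array median or less than 1 log2 unit above it on all 14 arrays. On chow the summed levels of stellate cell markers were 11.30 to 11.43 in KO and 10.80 to 11.45 in HET livers, and those of macrophage markers 10.45 to 10.86 in KO and 10.42 to 11.07 in HET livers, so both sums overlapped. The chow sums of cholangiocyte markers did not overlap, at 7.47 to 8.24 in KO and 6.69 to 7.38 in HET livers. In WT livers they were 6.55 to 7.16. Sox9, the brightest of the 8, weighs most in these sums and averaged 6.58, against 4.28 for Muc1, the next. On chow Sox9 overlapped between KO and HET livers and did not pass (0.61 ± 0.35 SE, adjusted p = 0.496). Single markers did pass on chow, where 1.92% of all genes were called. Of 12 macrophage markers 2 rose, Cx3cr1 (2.61 ± 0.17, adjusted p = 3.25e-06) and Trem2 (1.42 ± 0.23, adjusted p = 0.00602), and Timd4 fell (-1.52 ± 0.22, adjusted p = 0.00281). Of 10 stellate cell markers Lum rose (1.34 ± 0.19, adjusted p = 0.00200) and Lrat fell (-1.22 ± 0.23, adjusted p = 0.0162), whereas limma called 0 of 8 cholangiocyte and 0 of 11 hepatocyte markers. Of these, 3 cholangiocyte markers and 1 hepatocyte marker had an unadjusted p under 0.05, as did 13.4% of all genes. Endothelial markers had 0 of 6 up and 1 down on HFD, and markers of intestine and other tissue 1 of 6 up. Of 5 lymphocyte markers limma called 0 on HFD, although the changes of all 5 were positive. Of the 5, 2 had an unadjusted p under 0.05, as did 20.5% of all genes. Their summed levels on HFD did not overlap, at 7.01 to 7.30 in KO and 6.07 to 6.40 in HET livers. On chow these sums overlapped, at 6.41 to 6.63 in KO and 5.72 to 7.48 in HET livers. The part of these cell markers in the falls of Cyp7b1, Cyp27a1, Slc27a5 and Nr0b2 was not tested.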

How the data were processed

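Per the submitters' processing notes, the authors used RMA and limma, without versions given. The deposited table gives a log2 intensity for each probe set and liver. RMA, as usually run, corrects background, equalizes the arrays' distributions and summarizes probes, so levels are relative within an array. Per the labels' protocols, RNeasy column RNA was labelled with the WT Plus kit. No build for the probe annotation was given in the sources used here. Of 41345 probe sets, 23521 carried 1 symbol and gave 22180 genes, the brightest probe set being kept where a gene had several. With limma 3.58.1 in R 4.3.3, all 14 arrays entered 1 fit with a mean for each group (9 residual and 3.83 prior degrees of freedom), and p-values were adjusted over all genes within each of 8 contrasts. The procedure was tested on simulated data. The changes seeded there were larger than those called for Cyp27a1, Slc27a5 and Nr0b2, so changes of that size were not covered. The genes, lists, tests and naming rule (all 10 genes, up to 4 called genes per list, and regulators named by role) were chosen with earlier results of these data known. A gene most like another has the highest Pearson r over the arrays, among named genes above the median level. Motifs were searched in RefSeq promoter windows. Precision is limited by the few arrays, above all for WT. Alternatives were leaving out dim probe sets, averaging a gene's probe sets, another variance prior, fewer arrays in the fit, a second normalization, a block by array letter, a clock term, and fits without single arrays or without F1 and F2. No letter was shared between groups, and all KO arrays on HFD carry the letter C. The block therefore cannot separate an effect of the letter from that of the group.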

Additional observations from a re-analysis of the deposited data

How the results depend on the processing

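Each of the 80 changes (10 genes, 8 contrasts) was recomputed in 22 alternative fits, and none of the 6 called changes turned sign. On HFD, KO minus HET called 4 genes. This became 2 when only the compared groups were fitted and 2 to 4 when each of the 14 arrays was left out in turn. It was 2 (Cyp7b1 and Slc27a5) without HET B1, KO C2 or KO C4. Cyp7b1 and Slc27a5 passed in all 22 of these fits. Over both diets the count of 1 became 3 with dim probe sets left out, 3 with a trended and robust prior and 3 with the clock term, each time Cyp7b1, Cyp27a1 and Slc27a5. It was 1 to 2 without single arrays, and 2 without HET F2 or KO C3 (adding Cyp27a1), without KO H1 (adding Slc27a5) and without HET B2 (adding Cyp8b1). For HFD minus chow in KO the count of 1 became 0 when only the KO groups were fitted and 0 to 1 without single arrays. For KO minus WT the count of 0 was 0 to 1 without single arrays, since Cyp7b1 passed without the chow KO liver H2 or the HFD KO livers C3 or C4 (adjusted p as low as 0.0232). C3 and C4 enter that comparison through the shared spread alone. The counts of 0 for KO minus HET on chow, HET minus WT, HFD minus chow in HET and the interaction stayed at 0 in every alternative. The cause of these shifts was not tested. No paired analysis was possible because array names are not shared between groups. With 2 or 3 livers per group, wide intervals remained for Cyp7a1 (-0.37 to 1.67) and Cyp8b1 (-2.12 to 0.02) between KO and HET livers on HFD.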
